A study of Macaca mulatta with 26 samples.

Results

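The circRNA with the highest mean share of junction reads in rhesus monkey vastus lateralis, a large thigh muscle, joined 3 exons of 1 locus on chromosome 2, and it was described here with every other circle that the same locus gave. A member was any circRNA on the plus strand of chromosome 2 of the rheMac2 genome that overlapped positions 189036369 to 189048246, or that was assigned to transcript ENSMMUT00000045193. Over all 26 libraries this rule found 6 circles among 29112 distinct circRNAs, where a circRNA is a back-splice junction with its exon structure. The locus was selected on the share of its 3-exon circle, called the main circle below (mmu_circ_010973 in the study), so that this circle's level and rank are descriptions and were not tested.

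RNA came from muscle of 6 young monkeys aged 0.003 to 6 years, 11 middle-aged monkeys aged 11.3 to 16.93 years and 7 old monkeys aged 25.7 to 40.9 years, with 1 library per separately numbered sample, each taken here as 1 monkey. The 2 in-depth libraries were sequenced further, one from the young group at 0.005 years and one from the old group at 40.1 years. The study calls these 2 additional samples. Their ages also occur among the 24, and whether the animals are the same is not stated. All animals were housed singly on a normal diet fed ad libitum, and no treatment of the animals is described. RNase R, an exonuclease that removes linear RNA, was applied to every sample. Genotype and sex are not stated in the sources used here. The 24 libraries held 822 to 11561 junction reads (median 3924), and 3 reads, the number up to which a count of 0 can be read, made up 0.0259% to 0.365% of a library. The in-depth libraries held 60704 (young) and 35205 (old) junction reads. Members are named by transcript identifiers that are not paired with gene names, so the labelled tissue was not checked against muscle markers and the host gene is not named here.

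A circRNA forms when the splicing machinery joins the donor site at the end of an exon backwards, to an acceptor site that lies before it in the transcript, in place of the next exon downstream. Such circles have no free ends and resist exonucleases. Usually a host makes several circles that share a donor or an acceptor, and inverted repeats in the introns on either side are known to favour back-splicing by pairing with each other. Each circle is recognised by reads that cross its back-splice junction, and these reads measure the circle and not the linear transcript.

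The 6 circles were built from 7 exons, numbered here from 1 in the direction of transcription. Exon 1 (68 nt) lies at 189036369 to 189036436, exon 2 (66 nt) at 189046329 to 189046394 and exon 3 (113 nt) at 189048134 to 189048246. Further downstream lie exon 4 (147 nt, 189066907 to 189067053), exon 5 (91 nt, 189069935 to 189070025), exon 6 (128 nt, 189071031 to 189071158) and exon 7 (400 nt, 189076559 to 189076958). The main circle comprised exons 1 to 3, which gave 247 nt of spliced RNA from a genomic span of 11878 nt. The other circles comprised exons 2 to 3 (179 nt), exons 2 to 4 (326 nt), exons 1 to 4 (394 nt), exons 1 to 6 (613 nt) and exons 1 to 7 (1013 nt). All 6 were exonic, and all 6 contained exons 2 and 3. The overlap rule takes in no circle that starts at exon 4 or further downstream. No intronic circRNA or circle on the minus strand was listed between exon 1 and exon 7.

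**Figure D1:**
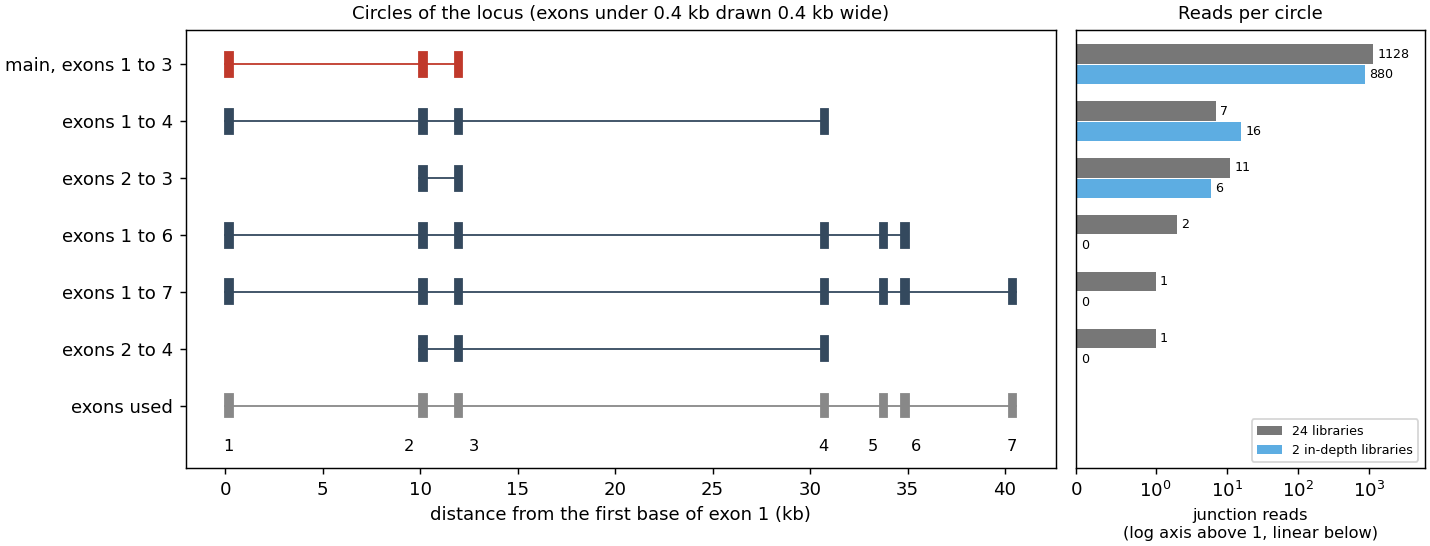
The left panel draws each circle of the locus as its exons (boxes) on a line, against the distance in kb from the first base of exon 1, and the right panel gives its junction reads summed over the 24 libraries (grey) and over the 2 in-depth libraries (blue). The main circle had 1128 and 880 reads, and the circle next in total reads, exons 1 to 4, had 7 and 16. Exons shorter than 0.4 kb are drawn 0.4 kb wide.

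Nearly all reads of the locus were on the main circle. It took 1128 of the 1150 locus reads in the 24 libraries, which is 98.1% (95% exact binomial interval 97.1% to 98.8%, counting error only, since reads carry no molecular identifiers). The circle of exons 2 to 3 had 11 reads in 3 libraries, that of exons 1 to 4 had 7 reads in 5 libraries, that of exons 1 to 6 had 2 reads in 1 library, and those of exons 1 to 7 and exons 2 to 4 had 1 read each. Counts by single splice site mostly restate the 1128 reads of the main circle, for which the locus was selected. The acceptor of exon 1 was used by 4 circles with 1138 reads (99.0%) and that of exon 2 by 2 circles with 12 reads (1.04%). The donor of exon 3 was used by 2 circles with 1139 reads (99.0%), that of exon 4 by 2 circles with 8 reads (0.696%), that of exon 6 by 1 circle with 2 reads and that of exon 7 by 1 circle with 1 read. Apart from the main circle, the acceptor of exon 1 had circles with 7, 2 and 1 reads, against 12 reads for that of exon 2. The donor of exon 3 then had 11 reads, against 8 for that of exon 4.

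The introns beside these sites differ in length. Upstream of exon 1 the intron is 4530 nt, and downstream of exon 3 it is 18660 nt, the longest of those between the 7 exons. Exons 1 and 2 are separated by 9892 nt and exons 2 and 3 by 1739 nt. Against the exonic circRNAs with at least 2 reads in the 24 libraries, the upstream intron of the main circle was longer than 39.9% of 7724 (median 6473 nt), and the downstream intron was longer than 81.6% of 7760 (median 6050.5 nt). Intron sequence was not analysed here.

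The same rule of overlap was applied to each of the 203 exonic circRNAs that reached 2 reads in 12 or more of the 24 libraries. The median of these circRNAs held 90.2% of the reads of all circles that overlapped it on its strand, with 3 overlapping circles. The main circle held 98.1%, with 5 overlapping circles, and 54 of the 203 held a higher percentage. Among the 9 exonic circRNAs with at least 500 reads the percentage ranged from 31.2% to 100%, and 4 were above the main circle. A high percentage is therefore shared with many other circRNAs, and these values are a description without a test.

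Every library of the series contained the main circle. It was the highest ranking circRNA in 7 of the 24 libraries, was among the first 5 in 16 and among the first 10 in 23, and its lowest rank was 11. Its mean share of junction reads was 1.10% ± 0.274 (SD, n = 24), with a range from 0.704% in a middle-aged monkey aged 13.6 years to 1.81% in an old monkey aged 40.9 years. Next in mean share came a 2-exon circRNA on the minus strand of chromosome 6 from 73699671 to 73701378 with 1.02% ± 0.444 (SD, n = 24), followed by a 3-exon circRNA on the plus strand of chromosome 18 from 72438949 to 72465599 with 0.900% ± 0.372 (SD, n = 24). The main circle was above the first of these in 13 of 24 libraries and above the second in 19. Its mean exceeded theirs by less than the SD between libraries.

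By coefficient of variation, the share of the main circle varied less between libraries than that of other abundant circRNAs. Its coefficient of variation over the 24 libraries was 24.9%, compared with 41.3% to 73.4% for the 8 other exonic circRNAs with at least 500 reads. Part of this range came from junctions that were given different exon structures in different libraries. When all structures of a junction were summed, a choice added after the values were seen, the others ranged from 39.4% to 67.0%, and the main circle, which had a single structure in all 26 libraries, stayed at 24.9%. Spread beyond counting error remained. Its chi-square statistic against one common share was 2.97 per degree of freedom (23 degrees of freedom), against 2.46 to 15.0 for the 8 others, so that by this measure, which gives more weight to deep libraries, it was not the lowest. These values are descriptions without a test. The coefficient of variation also includes counting error, which is relatively smaller for a circRNA with more reads. The main circle, selected on its share, had the most reads of these circRNAs. The SD between libraries was 0.274 percentage points and the mean counting error of a library was 0.193. In 5 of 24 libraries the 95% Wilson interval of the share did not contain the pooled share of 1.14%.

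**Figure D2:**
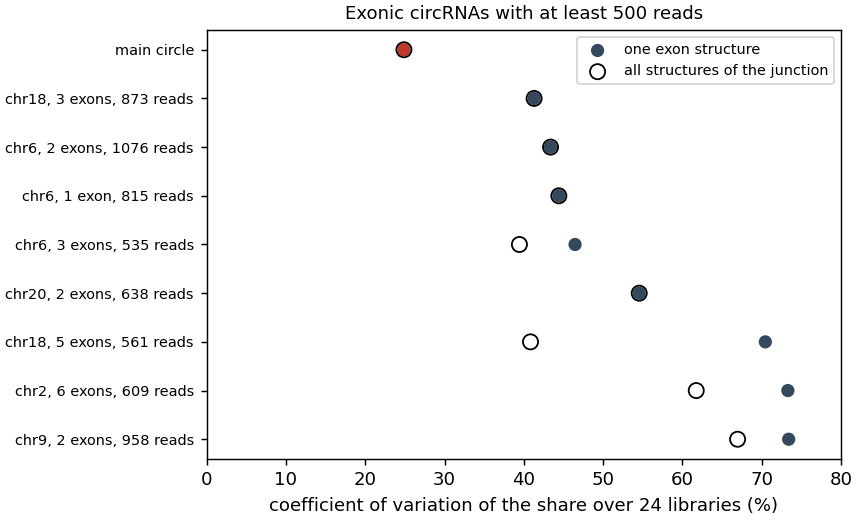
Each row is an exonic circRNA with at least 500 reads over the 24 libraries, and the horizontal axis is the coefficient of variation (%) of its share of junction reads over these libraries. Filled points use 1 exon structure (red, main circle) and open circles sum all structures of the junction. The main circle lies at 24.9% and no other filled point is below 41.3%.

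Reads of the main circle followed the depth of the library. They ranged from 9 to 150, a 16.7-fold range, while the total of junction reads covered a 14.1-fold range. Over the 24 libraries Pearson r between the reads of the main circle and the junction reads of the rest of the library was 0.935 and Spearman rho was 0.920, and r was 0.880 without the 2 libraries farthest from the median depth. A circle chosen for a high share must gain reads with depth over such a range, so these are descriptions that tell nothing particular about the locus. For the share of the main circle in place of its reads, the correlation with depth was r = 0.200 (permutation test with 100000 resamples, p = 0.347, adjusted p = 0.483 over 5 relations) and rho = 0.126 (permutation p = 0.555, adjusted p = 0.909), and without the same 2 libraries r was 0.0678. A relation of the share with depth was not detected.

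**Figure D3:**
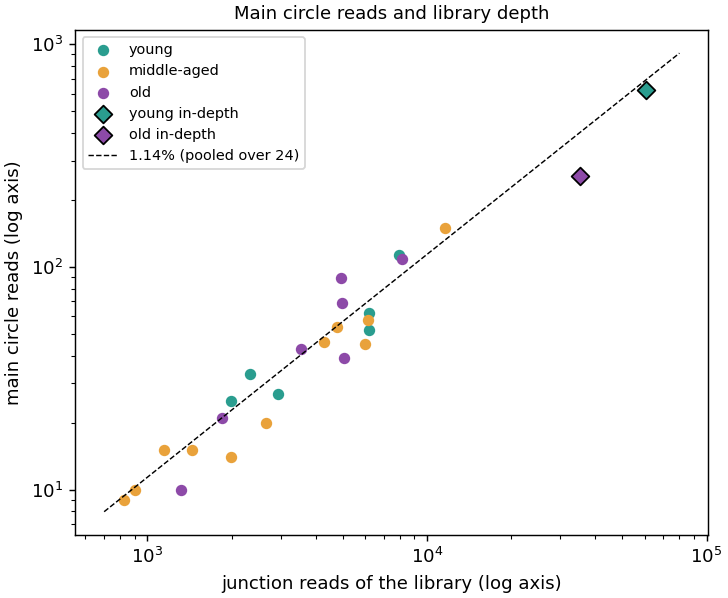
Reads of the main circle (vertical, log axis) are plotted against all junction reads of the library (horizontal, log axis) for the young, middle-aged and old libraries (circles) and the 2 in-depth libraries (diamonds), and the dashed line marks 1.14%, the share pooled over the 24. The 24 libraries lie along the line from 9 to 150 reads, the young in-depth library lies near it at 623 reads, and the old in-depth library lies below it at 257.

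Age groups were compared to ask whether the main circle changes as the muscle ages. In young monkeys its share ranged from 0.835% to 1.43% (median 1.13%), in middle-aged monkeys from 0.704% to 1.31% (median 1.07%) and in old monkeys from 0.759% to 1.81% (median 1.21%). The ranges of the 3 groups overlapped, and that of old monkeys reached further up than the others, to 1.81%. Within the young group, the 3 monkeys under 1 year had 0.921%, 1.00% and 1.43%, and the 3 aged 2.8, 4.06 and 6 years had 0.835%, 1.25% and 1.42%, so that these also overlapped. The mean share was 1.14% ± 0.258 (SD, n = 6) for young monkeys. For middle-aged monkeys it was 1.02% ± 0.209 (SD, n = 11), and for old monkeys it was 1.20% ± 0.367 (SD, n = 7).

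None of the differences between age groups passed its test. Old monkeys were 0.0612 percentage points above young monkeys (exact two-sided permutation test over 1716 splits, p = 0.733, adjusted p = 0.733). Middle-aged monkeys were 0.124 percentage points below young monkeys (mean 1.02% against 1.14%, exact permutation test over 12376 splits, p = 0.295, adjusted p = 0.443), and old monkeys were 0.185 percentage points above middle-aged monkeys (exact permutation test over 31824 splits, p = 0.198, adjusted p = 0.443). Leaving out the old monkey aged 40.9 years turned the difference between old and young to -0.0396 percentage points, and leaving out the young monkey aged 2.8 years turned it to -0.00018. Leaving out 1 library at a time, the difference between middle-aged and young monkeys lay between -0.185 and -0.0667, and that between old and middle-aged monkeys between 0.0841, without the old monkey aged 40.9 years, and 0.259. Without the 6 libraries with the fewest junction reads, old monkeys were 0.353 percentage points above middle-aged monkeys, 1.30% ± 0.372 (SD, n = 5) against 0.951% ± 0.227 (SD, n = 7), with p = 0.0682 and an adjusted p of 0.205 in the exact permutation test.

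**Figure D4:**
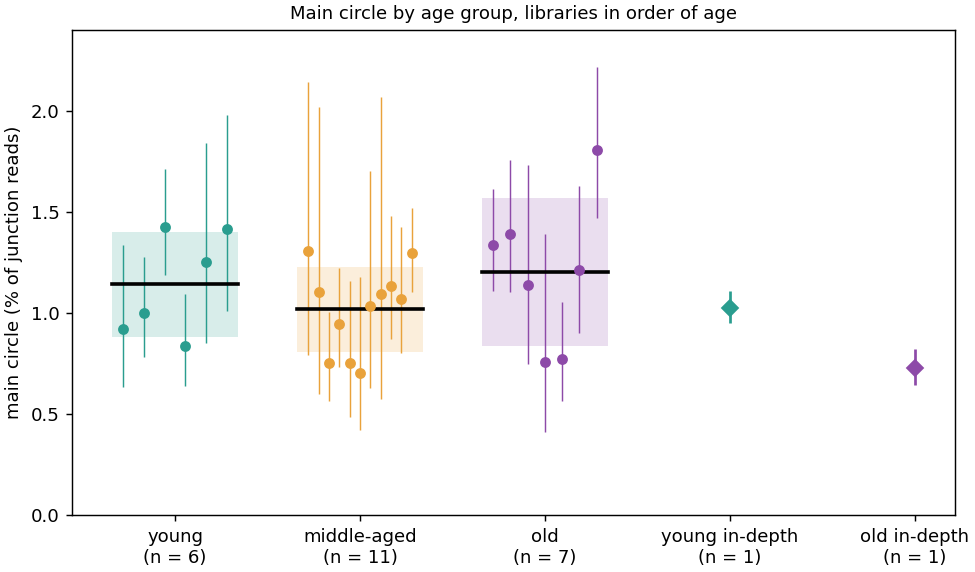
The vertical axis is the share of junction reads on the main circle (%) with its 95% Wilson interval, for each library of the young, middle-aged and old groups in order of age and for the 2 in-depth libraries (diamonds). Black lines are group means and shaded bands 1 SD. The bands of the 3 groups, around means of 1.14%, 1.02% and 1.20%, overlap.

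A fit over all 218 circRNAs, intronic ones included, that reached 2 reads in 12 or more libraries compared the change of the main circle with that of the others. The share of circRNAs with a smaller absolute change was 10.6% for old against young, 21.1% for middle-aged against young and 30.3% for old against middle-aged monkeys. In the last comparison it was 61.0% with TMM factors, 50.9% with equal library sizes and 51.4% without the 6 smallest libraries. Under the alternative settings it lay between 4.13% and 23.9% for old against young. For middle-aged against young monkeys it lay between 13.6% and 42.7%. The place of the main circle thus depended on the setting. Its log2 fold change was 0.08 with a standard error of 0.46 (95% interval -0.84 to 1.01) for old against young, -0.17 with a standard error of 0.42 (95% interval -1.01 to 0.68) for middle-aged against young, and 0.25 with a standard error of 0.40 (95% interval -0.56 to 1.06) for old against middle-aged monkeys. The median standard error of the 218 circRNAs was larger, 0.71, 0.66 and 0.63 in the same order. The main circle was selected for a high share, so its place among the changes is not read as stability with age. In edgeR (quasi-likelihood test) the p values of the main circle after Benjamini-Hochberg adjustment were 0.995, 0.994 and 0.979. Of the 218 circRNAs, 0% passed an adjusted p of 0.05 between old and young monkeys, where 12 had an unadjusted p under 0.05 and DESeq2 called 0. Between middle-aged and young monkeys 0% passed, where 15 had an unadjusted p under 0.05 and DESeq2 called 1. Between old and middle-aged monkeys 0.459% passed, which was 1 circRNA, on chromosome 11 from 12601546 to 12601939 and outside this locus. The width of the intervals depended on the method. DESeq2 gave standard errors of 0.21, 0.20 and 0.19 in the same order, with 95% intervals of -0.38 to 0.46, -0.59 to 0.20 and -0.15 to 0.61. Under the 8 alternative settings its log2 fold change kept its sign in each comparison, between 0.04 and 0.19 for old against young, between -0.39 and -0.17 for middle-aged against young, and between 0.23 and 0.55 for old against middle-aged monkeys.

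Within an age group no relation of the share with age was detected. Pearson r was 0.378 in young (n = 6, exact permutation p = 0.435), 0.237 in middle-aged (n = 11, permutation p = 0.483) and 0.350 in old monkeys (n = 7, exact permutation p = 0.431), each with an adjusted p of 0.483 over 5 relations. Spearman rho was 0.371 (exact permutation p = 0.497), 0.118 (permutation p = 0.727) and 0.0357 (exact permutation p = 0.963), with adjusted p values of 0.909, 0.909 and 0.963. Without the 2 ages farthest from the median of each group, r was -0.526 in young monkeys (n = 4, exact permutation p = 0.5). It was 0.390 in middle-aged (n = 9, permutation p = 0.289) and -0.921 in old monkeys (n = 5, exact permutation p = 0.0583). The sign in young and in old monkeys thus rested on the animals left out, and few libraries remained. No r was computed over all ages, because they fall into 3 separate groups.

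Circles other than the main one were seen in 8 of the 24 libraries, with 22 reads in all. The 8 libraries had 34 to 156 locus reads (median 59), and the 16 libraries with the main circle alone had 9 to 89 (median 23). The 3 libraries with the most locus reads held 17 of the 22 reads. These were a middle-aged monkey aged 16.93 years with 6 of 156 locus reads on other circles (4 on exons 2 to 3 and 2 on exons 1 to 4), an old monkey aged 25.7 years with 8 of 117 (4 on exons 2 to 3, 2 on exons 1 to 4 and 2 on exons 1 to 6), and a young monkey aged 0.03 years with 3 of 116, all on exons 2 to 3. Each of the 5 remaining libraries had 1 such read, namely 3 on exons 1 to 4, 1 on exons 1 to 7 and 1 on exons 2 to 4. The circle of exons 2 to 3 was found only in the 3 libraries richest in locus reads, with 3 or 4 reads in each. The old library next in locus reads, with 89, had 0 reads on other circles. The part of depth in this pattern was not tested. In the 3 richest libraries a single read is less than 1% of the locus. In the library with the fewest locus reads, 9, a single read would be 11.1%.

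**Figure D5:**
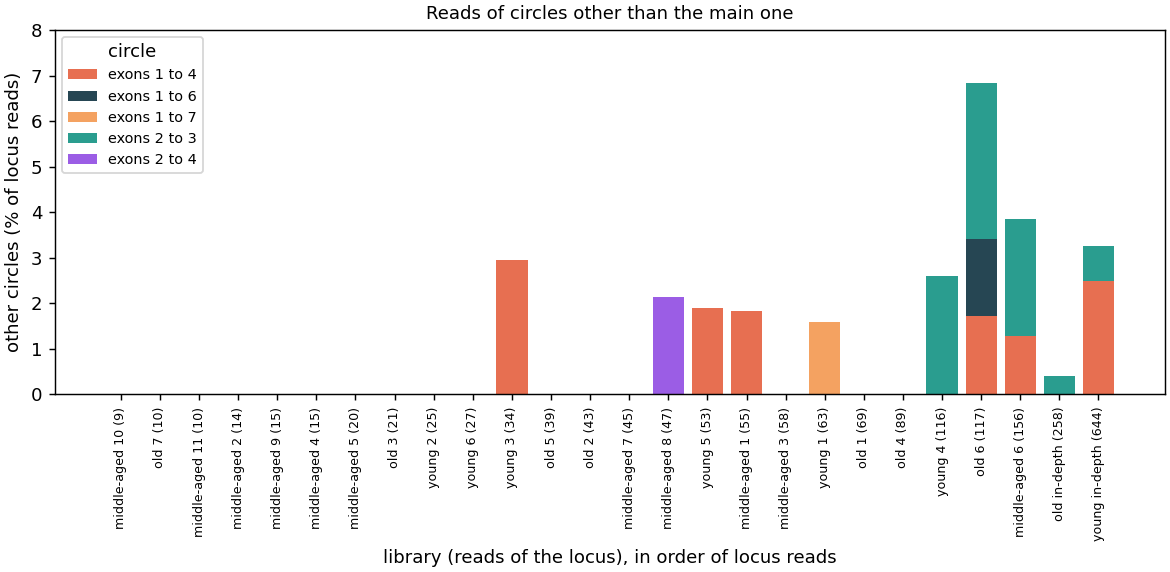
Bars give the percentage of locus reads on each circle other than the main one, for the 26 libraries in order of their locus reads, which stand in brackets. Bars appear in 8 of the 24 libraries and in both in-depth libraries, and the highest, 6.84%, is that of the old monkey aged 25.7 years.

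Age groups did not differ detectably in how the locus reads were divided. Pooled over libraries, other circles held 6 of 318 locus reads in young (1.89%, 95% exact interval 0.695% to 4.06%), 8 of 444 in middle-aged (1.80%, 0.781% to 3.52%) and 8 of 388 in old monkeys (2.06%, 0.894% to 4.02%). Per library the percentage was 1.50% ± 1.26 (SD, n = 6) for young monkeys. For middle-aged monkeys it was 0.708% ± 1.31 (SD, n = 11), and for old monkeys 0.977% ± 2.58 (SD, n = 7). It was above 0 in 4 of 6 young, 3 of 11 middle-aged and 1 of 7 old libraries, and the medians were 1.74%, 0% and 0%. The median number of locus reads per library was 43.5, 20 and 43 in the same order. The part of these read numbers in the counts of libraries was not tested. Exact two-sided permutation tests gave p = 0.727 for old against young, p = 0.236 for middle-aged against young and p = 0.841 for old against middle-aged monkeys, with adjusted p values of 0.841, 0.709 and 0.841. All reads of other circles in old monkeys came from the 1 library of the monkey aged 25.7 years. The 6 other old libraries had 0 of 271, which allows up to 1.11%, and without that library old monkeys were 1.50 percentage points below young monkeys (exact permutation test, p = 0.0606, adjusted p = 0.182).

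By circle, the 3 age groups had similar and low numbers. The circle of exons 1 to 4 had 2 of 318 locus reads in young, 3 of 444 in middle-aged and 2 of 388 in old monkeys, and the circle of exons 2 to 3 had 3, 4 and 4 reads of the same totals. The exons 2 to 3 reads came from 1 library in each group. The exact intervals above cover counting error only and leave out the spread between libraries.

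The in-depth libraries gave 902 further reads of the locus. In the young in-depth library the main circle had 623 of 60704 junction reads, which is 1.03% (95% Wilson interval 0.949% to 1.11%) and rank 2. The library of the young monkey of the same age among the 24 had 62 of 6203, or 1.00% (0.781% to 1.28%) and rank 1. These shares agree within counting error (Fisher's exact test on reads, p = 0.895, adjusted p = 0.895 over 2 tests), at 9.79 times the junction reads and 10.05 times the reads of the main circle. In the old in-depth library the main circle had 257 of 35205 junction reads, which is 0.730% (0.646% to 0.824%) and rank 4, against 43 of 3550, or 1.21% (0.901% to 1.63%) and rank 3, in the library of the old monkey of the same age. Here the difference exceeded counting error (Fisher's exact test, p = 0.00336, adjusted p = 0.00672), with 9.92 times the junction reads but 5.98 times the reads of the main circle. The old in-depth value lay below all 7 old libraries, whose lowest was 0.759%. These tests compare 2 libraries at a time and not conditions, and they cover counting error only, which the 24 libraries exceeded among themselves (2.97 per degree of freedom, above).

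Reads of other circles in the in-depth libraries are given as values. Tests on reads between these 2 libraries are left out, since with 1 library per age they would compare 2 libraries and not ages. The Fisher tests on the main circle given above have the same limit and tell nothing about age or depth as conditions. The young in-depth library had 21 of 644 locus reads on other circles (3.26%, 95% exact interval 2.03% to 4.94%) and the old one 1 of 258 (0.388%, 0.00981% to 2.14%). Of these, the circle of exons 1 to 4 had 16 reads in the young library (2.48%, 1.43% to 4.003%) and 0 of 258 in the old library, which allows up to 1.16%. The circle of exons 2 to 3 had 5 reads (0.776%) and 1 read (0.388%). These intervals cover counting error only, and with 1 library each there is no replicate. In the 24 libraries exons 1 to 4 had 2 of 318 locus reads in young and 2 of 388 in old monkeys. The library of the young monkey of the same age had 0 reads of exons 1 to 4 among 63 locus reads, which allows up to 4.76%.

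The in-depth libraries added no member. The 2 in-depth libraries held 3 of the 6 circles, all of which the 24 libraries also contained, while the circles of exons 1 to 6, 1 to 7 and 2 to 4 were each seen in a single library of the 24 with 1 or 2 reads. One more circle lay just outside the rule, since it did not overlap the main circle. It joined exons 5 to 7 from 189069935 to 189076958, was assigned to transcript ENSMMUT00000026843, and had 1 read in the young in-depth library.

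The name of the host transcript depended on the library and on the circle. The main circle was assigned to ENSMMUT00000045193 in 22 of 26 libraries. In the other 4 it had a name beginning with PREDICTED, a different one in each library. Whether these names stand for different transcripts was not checked. The circle of exons 2 to 3 carried ENSMMUT00000045193 in 4 of 5 libraries. The circles of exons 1 to 4, 1 to 6, 1 to 7 and 2 to 4, all of which reach exon 4, carried it in 0 libraries. Whether their names stand for another host transcript was also not checked. Selection by ENSMMUT00000045193 alone found 2 of the 6 circles and 1670 of the 2052 locus reads, and none of the reads of a young, 2 middle-aged libraries and the old in-depth library. Of the 1128 reads of the main circle in the 24 libraries, 1031 carried the name. The exon coordinates were the same in all 26, so that the values above rest on position and do not depend on the name.

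The shares of 217 tested circRNAs of other loci were compared in rank order with that of the main circle over the 24 libraries. The 5 highest Spearman rho values were 0.505 for a 4-exon circRNA on chromosome 8 from 69734591 to 69744894, 0.486 for a 3-exon circRNA on chromosome 1 from 95320393 to 95333262, 0.465 and 0.418 for 2-exon circRNAs on chromosome 9 from 32072281 to 32074629 and on chromosome 19 from 11552088 to 11553234, and 0.427 for a 2-exon circRNA on chromosome 8 from 127953004 to 127953603. The median rho was -0.02 and the lowest -0.487. These are descriptions over 24 libraries that share their totals, and most of the 5 rest on few reads (55 to 251 in all).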

How the data were processed

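Total RNA of 26 muscle samples was digested with RNase R and sequenced. The authors removed adapters with cutadapt, aligned reads to rheMac2 with TopHat2 2.0.14 and Bowtie2 2.2.4, realigned what was left with TopHat's fusion search, assembled transcripts with Cufflinks 2.2.1 and called circRNAs with circExplorer. The deposited value of a circRNA in a library is its count of reads across the back-splice junction, not normalized. A circRNA that was not listed for a library was given 0 reads.

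A share is the percentage of all junction reads of a library. Coordinates are counted from 1 on rheMac2. Age groups were taken from the labels, which number the samples but do not name the animals, so that p-values measure the spread between samples; no 2 of the 24 libraries were identical, and no sample was dropped. The members, the comparisons and the tests were chosen with earlier results of these data known. Named by rule were all members of the locus, the 2 circRNAs next in mean share, and the 5 with the highest Spearman rho. The circRNA called on chromosome 11 was chosen after its values were seen. The study names no test or scaling that can be rebuilt from these counts, so total junction reads served as library size in edgeR 4.0.16. The quasi-likelihood test was used with the 3 age groups in one fit and no covariates (R 4.3.3). This fit was also run on simulated counts with changes larger than those of the main circle. That run does not show how small a change could be detected. Single values were compared with exact permutation tests in scipy 1.17.1 (Python 3.11.15, numpy 2.4.6, pandas 2.3.3, matplotlib 3.10.9). Alternatives were TMM factors, equal library sizes, DESeq2 1.42.0, at least 10 reads in total, summed exon structures, and subsets of samples. Leaving out each library in turn was added after the values were seen. Sequences and linear transcripts were not analysed here.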

Additional observations from a re-analysis of the deposited data

Results flagged for a closer look

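In the old group the percentage of locus reads on circles other than the main one was 6.84% in the library of the monkey aged 25.7 years and 0% in the other 6 old libraries, so that the highest value stood apart from the rest of its group by Dixon's criterion. It rests on 8 of 117 reads (95% exact interval 3.00% to 13.0%). This library had 8144 junction reads, the most of the old group, and the part of depth in this value was not tested. The old library next in locus reads had 0 of 89, which allows up to 3.37%. The criterion marks about 1 in 20 groups by chance, and with 6 of 7 values at 0 any library with a read on another circle would have been marked.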

How the results depend on the processing

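The log2 fold change of the main circle kept its direction and its adjusted p stayed above the threshold of 0.05 in all 3 comparisons under the 8 alternative settings. Among all circRNAs tested, the number called for middle-aged against young monkeys was 0 as reported, 1 with DESeq2 and 6 with at least 10 reads in total as the filter, and for old against middle-aged monkeys it was 1 as reported and 0 with TMM factors, equal library sizes, at least 10 reads in total, or without the 6 libraries with the fewest junction reads. When only circles inside the span of the main circle were counted, its percentage of locus reads in the 24 libraries was 99.0% in place of 98.1%, and the difference in other circles between old and young monkeys changed sign to 0.0747 percentage points. With reads as deposited in place of shares, r with age was -0.522 in young, 0.664 in middle-aged (permutation p = 0.0262, not adjusted) and -0.00509 in old monkeys, where reads also carry the depth of the library. Leaving out each library in turn, the difference in the share of the main circle between old and young ranged from -0.0396 to 0.135 percentage points, and the difference in other circles between old and middle-aged from -0.708 (without the old monkey aged 25.7 years) to 0.582. None of the differences with 1 library left out passed the threshold. No paired analysis was possible because the labels give the groups no shared replicate numbers. The number of locus reads per library, 9 to 156, limits what can be seen of the circles with few reads.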
